A study of Mus musculus with 5 samples.

Results

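Ackr1 and 9 genes of endothelial adhesion and identity were examined in mouse colon after an injection of an IL-11 receptor agonist. The 10 genes were chosen by name, with their difference between the groups in view, and not by a threshold. They were Ackr1, the adhesion genes Sele, Selp, Icam1, Vcam1 and Madcam1, and the pan-endothelial genes Pecam1, Cdh5, Vwf and Emcn. The array names 22911 genes in all, and the 10 genes were covered by 14 of its 56605 probes. Because NT-3N against Control is the comparison by which they were chosen, the values of the 10 genes are given as a description, with no p-value, and only genes outside this set are tested.

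Whole colon of wild-type C57BL/B6 mice (strain as labelled) was hybridised to single-colour Agilent arrays, 1 mouse per array. The Control group held 2 untreated mice. The NT-3N group held 3 mice that received NT-3N intravenously and were killed 3 hours later. NT-3N is a version of human IL-11 modified to be more stable and more active. The injected mice were 8 weeks old. The age of the Control mice is not stated, and neither is a vehicle injection, so an effect of being injected and one of NT-3N cannot be told apart. The labels and the study's methods give the dose in different units, so no dose is stated here.

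Leukocytes leave the blood mainly through venules. P-selectin (Selp) and E-selectin (Sele) on the endothelial surface catch rolling leukocytes, and ICAM-1 (Icam1), VCAM-1 (Vcam1) and MAdCAM-1 (Madcam1) then hold them by their integrins. Ackr1 encodes an atypical chemokine receptor, found on venular endothelium and red cells, that binds inflammatory chemokines and carries them across the vessel wall without signalling through G proteins. MAdCAM-1 is the gut addressin, used by lymphocytes to enter intestinal tissue and its lymphoid follicles. Pecam1, Cdh5, Vwf and Emcn are used as markers of endothelium at large, although Vwf and Emcn are not equally strong in all vessels.

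Promoter sequence was held for 6 of the 10 genes, which were Ackr1, Sele, Selp, Icam1, Madcam1 and Emcn. The 250 bases before the annotated start are shown for Ackr1, Icam1 and Selp, the 3 genes with the largest differences between the groups, and a shorter stretch is shown for Madcam1. They are RefSeq sequences of assembly GRCm38.p6, written 5′ to 3′ along the gene, and capitals mark matches to the motifs described after them.
Ackr1, chr1:173333504-173333753, minus strand: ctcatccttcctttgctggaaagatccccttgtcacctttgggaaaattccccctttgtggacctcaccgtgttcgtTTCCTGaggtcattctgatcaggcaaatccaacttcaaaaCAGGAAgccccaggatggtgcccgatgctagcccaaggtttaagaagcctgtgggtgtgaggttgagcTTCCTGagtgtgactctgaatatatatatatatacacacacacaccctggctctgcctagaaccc
Icam1, chr9:21015690-21015939, plus strand: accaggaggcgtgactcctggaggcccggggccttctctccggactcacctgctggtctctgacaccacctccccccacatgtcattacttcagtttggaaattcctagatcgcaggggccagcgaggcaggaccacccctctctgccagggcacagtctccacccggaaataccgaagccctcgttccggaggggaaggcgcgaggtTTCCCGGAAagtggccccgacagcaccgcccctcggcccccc
Selp, chr1:164115014-164115263, plus strand: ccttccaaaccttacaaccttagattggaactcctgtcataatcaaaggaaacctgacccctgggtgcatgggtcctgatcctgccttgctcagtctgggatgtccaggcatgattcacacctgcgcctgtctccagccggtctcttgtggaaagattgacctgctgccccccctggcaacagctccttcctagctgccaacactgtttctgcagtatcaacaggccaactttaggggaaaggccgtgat
Madcam1, chr10:79664449-79664518, plus strand: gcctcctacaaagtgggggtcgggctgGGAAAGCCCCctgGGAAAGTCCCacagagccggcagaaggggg

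Both strands of the 250 bases were searched for 5 motifs. One was TTCNNNGAA, which STAT factors bind, and another was the NF-kB consensus. CAGGAA is a site of the ETS family, which is prominent in endothelial genes. AGATAA is a site of the GATA family. TATAAA is the core of the TATA box. In the promoters of Ackr1 and Emcn the matches were all CAGGAA, 3 in Ackr1 and 2 in Emcn. One of the Ackr1 matches lay on the strand of the gene, at positions -133 to -128 from the start, and the others lay on the opposite strand. Icam1 held TTCNNNGAA at positions -42 to -34. Madcam1 held 2 matches to the NF-kB consensus on the opposite strand, at -83 to -74 and at -70 to -61. The Sele window held TTCNNNGAA, CAGGAA and TATAAA, and the start it was taken from lies 8620 bases downstream of the outermost start of the gene model. Selp held none of these motifs. Of 32851 promoter windows of the same length, 7.02% held TTCNNNGAA, 3.90% the NF-kB consensus, 25.7% CAGGAA, 9.99% AGATAA and 12.4% TATAAA. Overlapping motif matches numbered 0. A match is a description of the letters and not of binding.

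**Figure D1:**
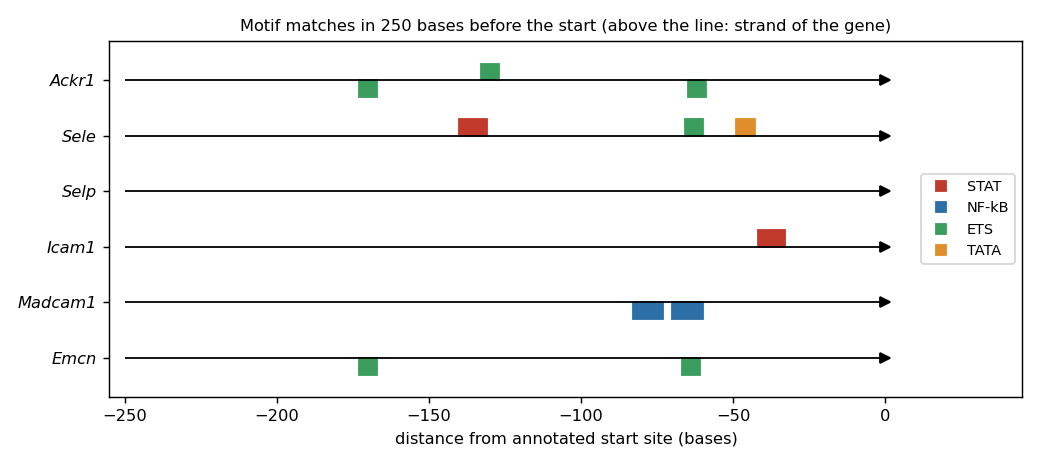
Motif matches in the 250 bases before the annotated start of 6 genes. The horizontal axis is the distance from the start in bases, boxes above a line lie on the strand of the gene and boxes below it on the opposite strand. Ackr1 and Emcn hold only CAGGAA matches (ETS), Icam1 holds 1 STAT match at -42 to -34, Madcam1 holds 2 NF-kB matches and Selp holds none.

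Signals are log2 values of processed array intensity after quantile normalization, and each gene is represented by its brightest probe unless another is named. Ackr1, Selp and Icam1 were each about doubled or more in NT-3N, while the 4 pan-endothelial genes differed by at most 0.24 on the log2 scale. Of the 9 genes that could be measured, 6 had every NT-3N array above both Control arrays, where 13.5% of all 32917 features did, and 0 had every NT-3N array below, where 14.8% did. These shares stand beside the counts for reference, since the comparison was in view when the genes were chosen. The 9 measured genes are those that passed a filter on dim signals, and Sele did not.

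Ackr1 had a log2 signal of 8.14 and 8.30 on the Control arrays and of 9.59, 9.32 and 9.44 on the NT-3N arrays. All 3 injected mice lay more than 1 log2 unit above both untreated mice, and the spread within each group was small beside that gap. Control averaged 8.22 ± 0.11 (SD, n = 2) and NT-3N 9.45 ± 0.14 (SD, n = 3). The log2 fold change was 1.23 (standard error 0.13), or 2.35-fold. A further probe of Ackr1 read 7.57 and 7.75 in Control and 8.84, 8.63 and 8.57 in NT-3N, a log2 fold change of 1.02. Both Ackr1 probes passed the background test of every array and placed the groups apart. In bulk tissue, fewer or more cells of a type and less or more RNA per cell cannot be told apart. Of all features, 0.911% had a larger rise than Ackr1.

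Selp was measured by 3 probes. The brightest read 5.17 and 5.02 in Control and 7.89, 6.13 and 6.51 in NT-3N, a log2 fold change of 1.75 (standard error 0.50). NT-3N replicate 1 stood well above the other injected mice, and without it the log2 fold change was 1.22. A second probe, with 4.92 and 4.58 in Control and 6.67, 5.35 and 5.23 in NT-3N, had a log2 fold change of 1.00. On these probes the groups did not overlap, and NT-3N replicate 1 was the highest array on both. The dimmest probe, well above background on 1 of the 2 Control arrays, read 4.45 and 3.17 in Control and 6.12, 4.32 and 5.09 in NT-3N. Its groups overlapped.

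Icam1 had a single probe, dim but well above background on all 5 arrays. It read 5.14 and 5.14 in Control and 5.95, 6.35 and 6.34 in NT-3N. The untreated mice were almost equal and every injected mouse lay above them. The log2 fold change was 1.08 (standard error 0.20). Under a normexp background correction with an offset of 50, run on the median instead of the processed spot signal, it was 0.45, and that of Selp was 0.94 against 1.75. ICAM-1 is made by leukocytes, fibroblasts and epithelium as well as by endothelium, so its source in whole colon was not tested.

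The other adhesion genes differed less. The bright Vcam1 probe read 9.90 and 9.72 in Control and 9.94, 10.19 and 9.93 in NT-3N, a log2 fold change of 0.21 (standard error 0.13). The groups of this probe lay next to each other without overlap, with a gap smaller than the spread within NT-3N. The dimmer Vcam1 probe had a larger difference, 0.50, with 5.37 and 5.25 in Control and 5.68, 5.73 and 6.01 in NT-3N, so the probes of Vcam1 gave the same direction and different sizes. Sele was not well above background on any of the 5 arrays, and no level or difference can be given for it.

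Madcam1 read 5.46 and 4.30 in Control and 5.43, 5.27 and 5.34 in NT-3N. Control replicate 2 stood alone, far below every other array, while Control replicate 1 was at the level of the injected mice. The log2 fold change of 0.46, with a standard error of 0.36, rested on Control replicate 2 and was -0.12 without it. The summed signal of 9 markers of B cells and follicles followed the same array. It was 5855 in Control replicate 1, 1622 in Control replicate 2 and between 5356 and 6554 in NT-3N. Markers of follicular and reticular stroma had a summed signal of 12410 in Control replicate 1, 4406 in Control replicate 2 and between 9352 and 15842 in NT-3N. Nearly all of this sum came from Clu. In the same list Ccl19 read 7.96 and 5.69 and Bst1 6.16 and 5.03 in Control, while Il7 was similar there, at 6.53 and 6.39. The part of lymphoid follicles in the Madcam1 value was not tested.

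The 4 pan-endothelial genes were similar in both groups. Pecam1, a junctional adhesion molecule of endothelium and some blood cells, read 7.57 and 7.48 in Control and 7.65, 7.58 and 7.64 in NT-3N. Its groups did not overlap, but the gap between them was far smaller than the spread within Control. Cdh5, which encodes VE-cadherin of the endothelial junctions, read 7.92 and 7.996 in Control and 8.03, 8.34 and 8.23 in NT-3N. Its log2 fold change of 0.24, with a standard error of 0.14, was the highest of the 4. Vwf, which encodes von Willebrand factor, read 10.40 and 10.16 in Control and 10.37, 10.59 and 10.42 in NT-3N, and its groups overlapped. Emcn, which encodes the sialomucin endomucin of capillaries and venules, read 9.34 and 9.16 in Control and 9.15, 9.53 and 9.42 in NT-3N, and its groups overlapped too. The log2 fold changes of Pecam1, Vwf and Emcn were 0.10, 0.17 and 0.12, with standard errors between 0.12 and 0.15.

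**Figure D2:**
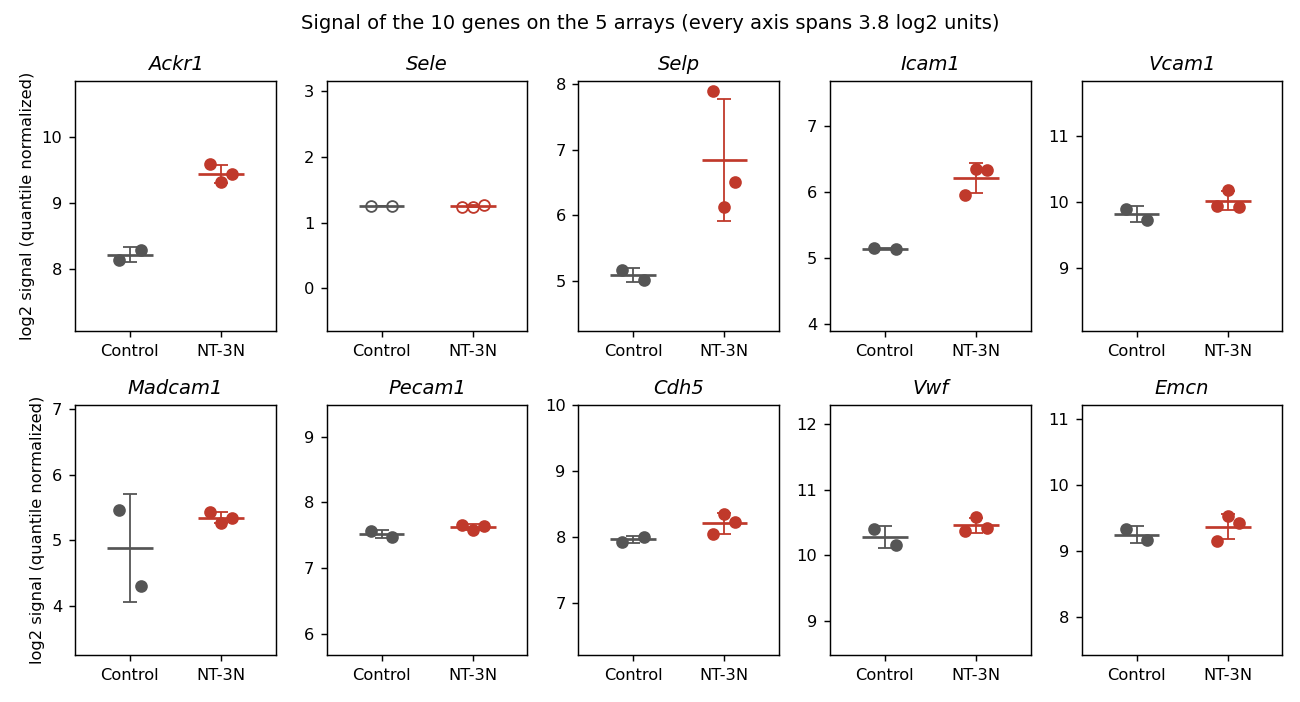
Log2 signal of the 10 genes on each array, grey for Control (n = 2) and red for NT-3N (n = 3), with the mean as a line and the SD as a bar. Open circles (Sele) mark signals not well above background. Ackr1, Selp and Icam1 are separated by group, Control replicate 2 lies apart for Madcam1, and the pan-endothelial genes lie close together.

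**Figure D3:**
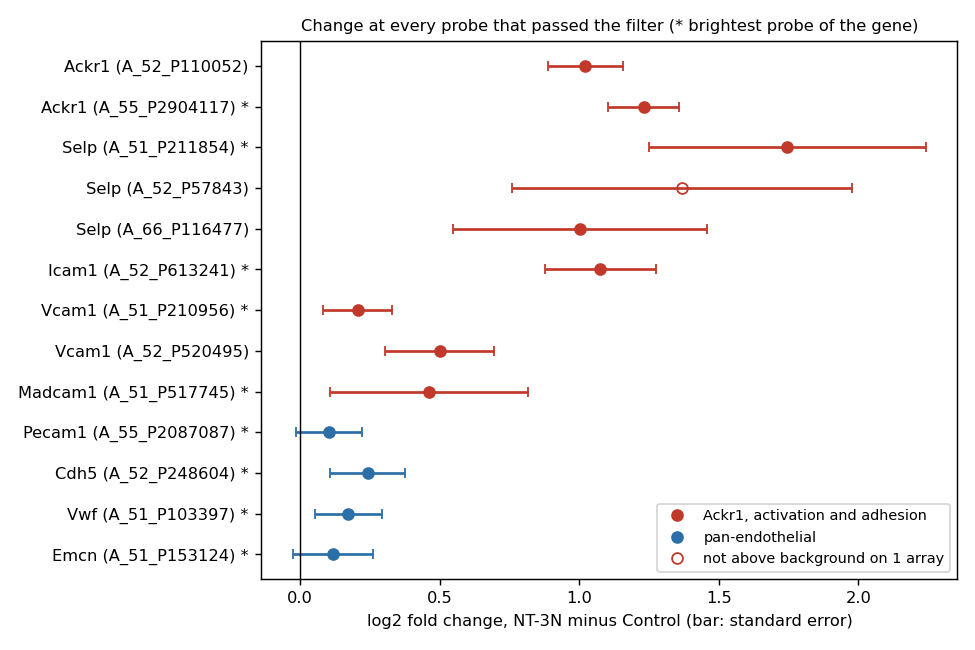
Log2 fold change of NT-3N against Control with its standard error for the 13 probes that passed the filter. All 13 lie above 0, the pan-endothelial probes between 0.10 and 0.24 and those of Ackr1, Selp and Icam1 at 1.00 or above.

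The activation genes were then set against the pan-endothelial genes. The median log2 fold change was 1.08 over Ackr1, Selp, Icam1, Vcam1 and Madcam1 and 0.15 over the 4 pan-endothelial genes, a difference of 0.93, with a median over all features of -0.019. With the normexp correction the difference was 0.33. The same was done on each array, with every gene expressed as its change from the Control mean. The median change of the pan-endothelial genes was 0.079, 0.29 and 0.15 on the NT-3N arrays, and -0.068 and 0.068 in Control. Relative to this median, Ackr1 was higher by 1.29, 0.81 and 1.07 on the NT-3N arrays, against -0.15 and 0.15 in Control. Icam1 was higher by 0.74, 0.92 and 1.05, against values within 0.065 of 0 in Control, and Selp was higher by 2.71, 0.74 and 1.26. On all 3 injected arrays these genes moved apart from the pan-endothelial genes. The bright Vcam1 probe stayed near the pan-endothelial genes, at 0.051, 0.083 and -0.035 relative to their median, while the dimmer one was higher by 0.29, 0.14 and 0.55. Madcam1 lay between 0.093 and 0.47 in NT-3N, inside the range of -0.51 to 0.51 of Control.

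**Figure D4:**
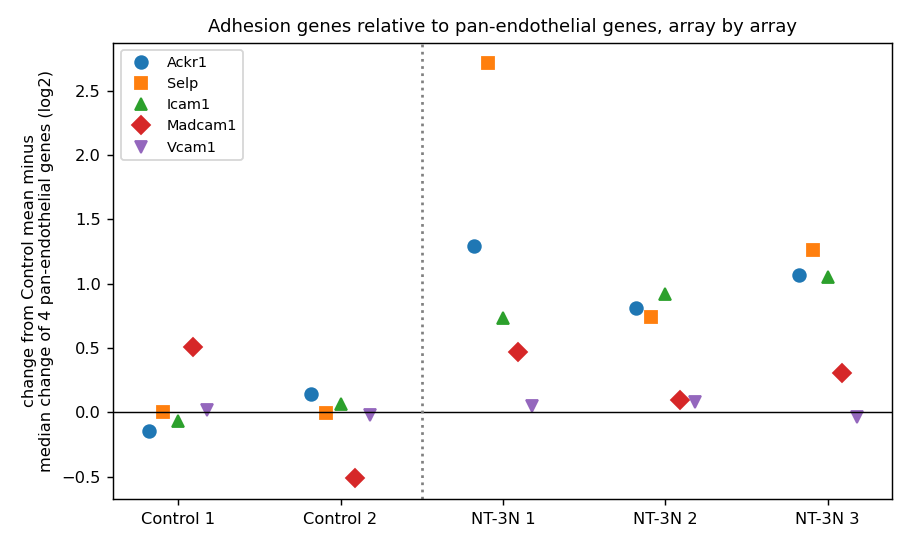
Change of 5 genes from the Control mean, minus the median change of the 4 pan-endothelial genes, in log2 units for each array. Ackr1, Selp and Icam1 lie at 0.74 or above on the 3 NT-3N arrays, and the bright Vcam1 probe stays within 0.083 of 0 on every array.

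A longer list of pan-endothelial markers showed no common direction. Of 12 tested, 6 were higher and 6 lower, with a median log2 fold change of 0.011, and their summed signal was between 10252 and 11161 in Control and between 10420 and 12698 in NT-3N. Ecscr, an endothelial surface protein, had the largest difference, from 9.32 and 9.24 to 10.06, 10.33 and 10.49, with a log2 fold change of 1.01 (limma adjusted p = 0.093). Sox18, a transcription factor of endothelium, had a log2 fold change of -0.57 (limma adjusted p = 0.48). Over 9 arterial and capillary markers the median was -0.15, with 2 higher and 7 lower. Among them, Hey1 and Gja5 of arteries had log2 fold changes of -0.45 and -0.42 and the Notch ligand Dll4 had 0.44, with limma adjusted p between 0.38 and 0.48.

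All 7 lymphatic markers were higher, by 0.38 in the median on the log2 scale. The signal summed over them was 7560 and 6763 in Control and 9522, 12546 and 15804 in NT-3N. Most of this sum came from Ccl21a and Pdpn. Ccl21a read 12.21 and 11.76 in Control and 12.20, 12.58 and 13.13 in NT-3N, and its groups overlapped. The part of lymphatic endothelium in the sum was not tested. Pdpn, which marks lymphatic endothelium and also fibroblasts, had a log2 fold change of 1.49 (limma adjusted p = 0.067). Reln had 0.38 (limma adjusted p = 0.52). Mural cell markers had a median of -0.025, with Kcnj8, a potassium channel of pericytes, at 0.89 (limma adjusted p = 0.055) and Cspg4 at -0.62 (limma adjusted p = 0.33). Of the 74 marker genes tested in 11 lists, 0 had an adjusted p under 0.05 in limma and 17 an unadjusted p under 0.05, where 9.62% of all features did. The 17 include S100a8 and S100a9, which passed the filter only through the NT-3N arrays. The marker lists too were chosen with earlier results of these data known.

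Selp is also stored in platelets, and several of the 10 genes are made by leukocytes. Of 6 platelet markers, 3 passed the filter and 2 were well above background on all 5 arrays. Their summed signal was between 189 and 196 in Control and between 163 and 246 in NT-3N, and Gp9, Gp1ba and Gp5 did not pass. The neutrophil genes S100a8 and S100a9 were not well above background in Control and were so on all NT-3N arrays, with 6.21, 4.28 and 5.15 for S100a8 and 8.58, 6.23 and 6.65 for S100a9. NT-3N replicate 1 was the highest array for both, as it was for Selp and for the platelet sum. Of the 8 neutrophil and monocyte markers, 5 were tested, 3 higher and 2 lower. The summed signal of the list was between 105593 and 115872 in Control and between 101392 and 108901 in NT-3N. Most of this sum came from Csf3r and Ly6c2, the latter a near-identical copy of a gene that endothelium also expresses. Csf3r read 16.25 and 16.23 in Control, where S100a8 and S100a9 were not well above background. The sum therefore cannot serve as a measure of neutrophil content. Ly6g, Cxcr2 and Retnlg were not tested. The part of platelets or leukocytes in the Selp value was not tested.

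The remaining tissue lists bear on the makeup of the samples. All 7 epithelial and all 7 smooth muscle markers were well above background on every array, as the label of colon tissue would have it. Of the epithelial markers 2 were higher and 5 lower, with a median log2 fold change of -0.030. The 7 smooth muscle markers were all lower, with a median of -0.30. Smtn, which encodes smoothelin, had -0.88 (limma adjusted p = 0.062), and Myh11 and Tagln had -0.22 and -0.25 (limma adjusted p = 0.48 and 0.49). The summed signal of the list lay between 469269 and 484745 in Control and between 340018 and 431109 in NT-3N. The part of muscle content in the values of the 10 genes was not tested. Fat markers differed from array to array, with a summed signal of 11990 and 6834 in Control and 9919, 6057 and 3963 in NT-3N. Adipoq among them read 9.26 and 5.21 in Control and 8.76, 7.545 and 4.32 in NT-3N. The part of fat content in the values of the 10 genes was not tested. The log2 fold changes of the fat markers had a median of -0.19. B cell and follicle markers had one of 1.03, with Ms4a1, which encodes CD20, at 3.65 (limma adjusted p = 0.059), and among stromal markers Ccl19 and Il7 had 1.87 and 0.97 (limma adjusted p = 0.48 and 0.17).

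The chemokines that ACKR1 binds were then examined, as a list drawn up by receptor binding, with earlier results of these data known. All 9 that passed the filter were higher in NT-3N, their median log2 fold change was 0.70, and Cxcl2 and Ppbp did not pass. Over all features 46.4% were higher. Ccl11, which encodes the eosinophil attractant eotaxin, rose from 8.83 and 8.76 in Control to 9.81, 10.00 and 9.89 in NT-3N, with a log2 fold change of 1.105 (standard error 0.11, limma adjusted p = 0.035). The call was lost in 8 of 19 alternatives, which were normexp, no filter on dim probes, no intensity trend, the replicate block, and leaving out either Control mouse or NT-3N replicate 2 or 3. Of the 9, 6 had an unadjusted p under 0.05 in limma, all of them higher. Of all features, 4.95% were higher and 4.67% lower at such a p. Among the 6 is Cxcl1, which passed the filter only because of the NT-3N arrays.

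Cxcl1, a neutrophil attractant, read 2.37 and 3.91 in Control, where it was well above background on 1 of 2 arrays, and 6.996, 6.31 and 5.90 in NT-3N (limma adjusted p = 0.13). The neutrophil attractant Cxcl5 had a log2 fold change of 1.22 (limma adjusted p = 0.36). The monocyte attractants Ccl7, Ccl8 and Ccl2 had log2 fold changes of 1.25, 0.70 and 0.70, with limma adjusted p between 0.39 and 0.51. For each of these 5 genes the arrays of the groups did not overlap. Control replicate 2 had the higher Control value for Ccl2, Ccl7, Ccl8 and Cxcl1.

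Other chemokine receptors that take up ligand without G protein signalling differed in direction. Ackr2, a scavenger of inflammatory CC chemokines known from lymphatic endothelium, read 7.08 and 7.20 in Control and 8.09, 8.18 and 8.44 in NT-3N, with a log2 fold change of 1.09 (limma adjusted p = 0.083). Ackr4, a scavenger of CCL19 and CCL21, read 8.12 and 8.36 in Control and 7.24, 7.80 and 7.81 in NT-3N, with a log2 fold change of -0.63 (limma adjusted p = 0.44). None of the 4 had an adjusted p under 0.05 in limma, and 2 had an unadjusted p under 0.05.

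The leukocyte ligands of the adhesion molecules differed little. Of 10 tested, 5 were higher and 5 lower, with a median log2 fold change of -0.0058, and 0 had an adjusted or unadjusted p under 0.05 in limma. The highest was Itgb2 (the beta chain of the ICAM-1 integrins), with 0.17. Selplg, which encodes the selectin ligand PSGL-1, had 0.0010, and Itga4 and Itgb7, which together bind MAdCAM-1, had -0.013 and 0.14, and these 3 were picked for their ligands after their values were seen. The 9 enzymes that build selectin ligands had a median of 0.20, with 0 at an adjusted or unadjusted p under 0.05. The highest and lowest of those well above background on all arrays were Chst4, with 0.35, and Chst2, with -0.28, both of which sulfate selectin ligands.

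Other junction and transmigration genes of the vessel wall had a median log2 fold change of -0.12, with 4 higher and 8 lower of 12. Jam2, a junctional adhesion molecule, read 8.75 and 8.68 in Control and 8.19, 8.25 and 8.31 in NT-3N, with a log2 fold change of -0.47 (limma adjusted p = 0.27). Esam, an adhesion molecule of endothelial junctions and platelets, had 0.40 (limma adjusted p = 0.42), and Podxl had 0.43 (limma adjusted p = 0.67). In limma 0 of the 12 had an adjusted p under 0.05 and 2 an unadjusted p under 0.05.

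Receptors, signal carriers and other genes linked to endothelial activation had a median log2 fold change of 0.28, with 11 higher and 3 lower of 14. Whether their signals in whole colon came from endothelium was not tested. Stat3 alone passed the threshold. It rose from 12.84 and 12.80 in Control to 13.61, 13.58 and 13.48 in NT-3N, with a log2 fold change of 0.74 (standard error 0.077, limma adjusted p = 0.043), a call that was lost in the same alternatives as that of Ccl11, but with the mean of probes in place of normexp. Il6st, Il1r1 and Tnfrsf1a, receptors for cytokines of the IL-6, IL-1 and TNF families, had log2 fold changes of 0.80, 0.66 and 0.58, with limma adjusted p between 0.15 and 0.19. Tnfaip3, an inhibitor of NF-kB, had 0.30 (limma adjusted p = 0.51). Thbd, which encodes thrombomodulin, was the lowest of the list at -0.29 (limma adjusted p = 0.71). Over the 6 lists together, 58 genes were tested, and 2 had an adjusted p under 0.05 in limma, both higher. Of all features, 0.143% had one and 0.125% were higher with it. An unadjusted p under 0.05 in limma was found for 16 of the 58, which is 27.6% against 9.62% of all features. The lists were chosen with earlier results of these data known, so the share of all features is given for reference only. Among the 16 is Cxcl1, which passed the filter only because of the NT-3N arrays.

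**Figure D5:**
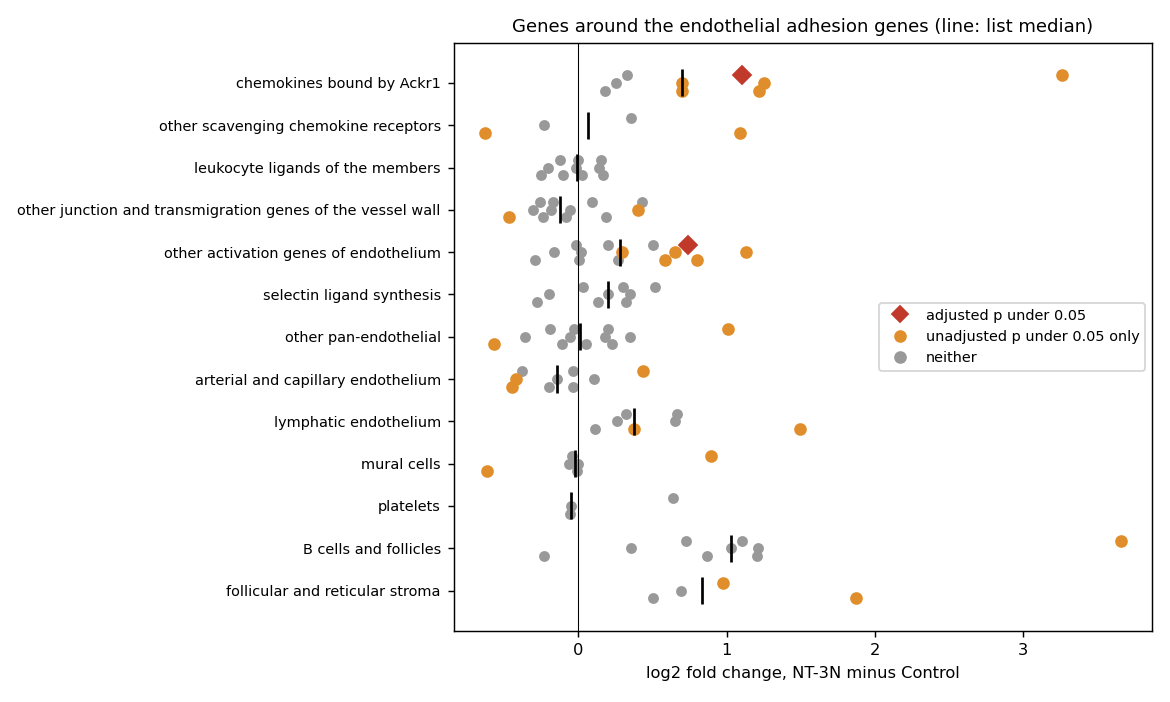
Log2 fold change of NT-3N against Control for the genes of 13 lists, 1 point per gene, with the median of each list as a line. Red diamonds mark the 2 genes with a limma adjusted p under 0.05 (Ccl11 and Stat3), orange points an unadjusted p under 0.05 alone. All 9 chemokines and all 7 lymphatic markers lie above 0, and the leukocyte ligands lie on both sides of it.

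The genes whose signal followed Ackr1 most closely over the 5 arrays were found by the root mean square difference of log2 signal, each gene centred on its own mean, among 16733 other genes well above background on all arrays. They were Slc5a9 (a sugar transporter), with a difference of 0.045, Adam32 with 0.068, Nupr1 (a stress-induced nuclear protein) with 0.096, Tacr1 (the receptor of substance P) with 0.096 and Map3k8 (a kinase of the NF-kB and ERK pathways) with 0.11. Their log2 fold changes lay between 1.15 and 1.38, as the measure requires. With 5 arrays the likeness is a description of these mice.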

How the data were processed

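RNA of whole colon from 5 mice was read on 5 Agilent SurePrint G3 mouse arrays. The authors extracted spots with Feature Extraction 11.0.1.1, and the deposited scanner files hold background-subtracted intensity not scaled between arrays. The authors also deposited log2 values, which correlated at 0.99998 or above with the values used here. Control and outlier spots were left out, log2 intensity was averaged per probe and quantile-normalized, and probes well above background on at least 2 arrays were kept. Accessions were named through RefSeq (32994 of 56605 probes). Testing used limma 3.58.1 under R 4.3.3 (intensity trend, two-sided, Benjamini-Hochberg over 32917 features); the study's methods name a local-pooled-error test, run as an alternative. The limma procedure was tested on simulated data. Named genes were all 10 members and, of each list, genes past an adjusted or unadjusted p of 0.05 or with the largest change each way; 2 of these are not reported here. Members and lists were chosen with earlier results of these data known. The number of arrays limits the precision, and p-values measure the spread between these mice.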

Additional observations from a re-analysis of the deposited data

How the results depend on the processing

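Of 19 alternatives, array weights by REML was chosen after seeing the data. The 9 measured genes kept a positive log2 fold change in all 19, except Madcam1 without Control replicate 2. That of Ackr1 ranged from 1.101 (normexp) to 1.31. Of 13 probes, 13 or 12 were higher in 9 alternatives. The activation minus pan-endothelial difference of 0.93 was 0.33 with normexp on median spot signal, which changes the signal, the background and the offset together, and it lay between 0.87 and 1.02 when single arrays were left out.

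The number of features called, 47, was 2 with no filter, 2 without the trend, 170 with array weights estimated gene by gene and 200 by REML, 386 by the local-pooled-error test (a count for the implementation used here) and 0 with the replicate block (2488 at an unadjusted p under 0.05 in limma). Without each array it ranged from 0 (without NT-3N replicate 3, with 2373 at an unadjusted p under 0.05) to 116 (without Control replicate 2), with 31 without Control replicate 1, 84 without NT-3N replicate 1 and 1 without NT-3N replicate 2. The 2 pathway genes called were 1 with normexp, 1 with the mean of probes, 5 with either kind of array weights, 4 by the local-pooled-error test, and 0 with no filter, without the trend or with the replicate block. Without single NT-3N arrays they ranged from 0 to 4, with 4 without NT-3N replicate 1. Their count at an unadjusted p under 0.05, 16, ranged from 11 to 25, the latter with weights by REML. The cause was not tested. Same-numbered mice are not paired by the labels, and their deviations from the group means correlated at 0.13 and 0.036. NT-3N replicate 3 has no Control mouse of its number. The replicate block therefore gave the same effect sizes as leaving that mouse out.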
